A study of Mus musculus with 5 samples.

Results

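Claudins are the membrane proteins that form the strands of the epithelial tight junction, and the 10 described here, Cldn1, Cldn2, Cldn3, Cldn4, Cldn6, Cldn7, Cldn8, Cldn12, Cldn15 and Cldn23, were chosen by gene symbol from the 52029 genes of the deposited table. All 10 were found and all 10 passed the filter on low counts. The material was total RNA of mouse hepatobiliary organoids, epithelial cultures grown from wild-type primary liver stem/progenitor cells. In the co-culture group (3 samples, passage 8) the organoids shared the culture with liver endothelial cells (LiECs), whereas the group alone (2 samples, passage 1) had none. Both groups were taken at day 10 and shared a medium with EGF at 50 ng/ml, endothelial cell growth supplement (ECGS) and heparin at 100 µg/ml each, nicotinamide at 10 mM, serum replacement at 5% and Y-27632 at 10 µg/ml. Passage and co-culture changed together, so their parts in any difference cannot be told apart.

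Claudin proteins of neighbouring cells meet at their extracellular loops and either seal the space between the cells or leave a pore that passes selected ions. In the bile duct this junction keeps bile out of the tissue and sets how salt and water follow the secretions of the epithelium. Which claudins a cell makes therefore fixes how leaky the duct wall is and for which ions, and most claudins hold on to cytoplasmic scaffold proteins by their C-terminal end.

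Sequencing depth, as total counts, was 33881617 for M9 and 35878241 for M10, the first pair of co-culture libraries, against 26466739 for M11 and 29195328 for M12, the libraries alone. These 4 libraries share one table and were tested. The third co-culture library, with 58853737 counts, has a table of its own with another annotation, and its values are given with no test. Levels are CPM, counts relative to library size, scaled by edgeR's TMM factors over all 5 libraries and their shared genes, and fold changes are edgeR fits on the 4 libraries. Nothing in the labels ties the libraries of a group to separate cultures, so p-values measure library-to-library spread alone, and that spread may be technical. The 10 biliary markers summed to 10700 and 10200 CPM in M9 and M10 and 6100 CPM in the third co-culture library, against 6590 and 8170 CPM in M11 and M12. Most of the sums of M9 and M10 came from the keratin genes Krt7 and Krt19. Krt7 was at 3060 and 3300 CPM there, against 1410 and 1520 CPM in M11 and M12. Krt19 was at 4510 and 4420 CPM, against 1740 and 2260 CPM, so the sums mainly follow these keratin genes. In M9 and M10 edgeR called 3 of the 10 markers higher and 0 lower, where it called 0.994% and 1.25% of all genes tested. The 3 included Krt19 (log2 fold change 1.15, adjusted p = 0.0436, edgeR) and Krt7 (1.11, adjusted p = 0.0303). Of the 10, 6 had positive fold changes and 4 negative ones, of which Spp1 fell most (-1.44, adjusted p = 0.0825, edgeR). In the third library Krt7 (841 CPM) and Krt19 (1310 CPM) lay below both libraries alone, while Prom1 (966 CPM), also called higher, lay above them. Of 18 endothelial markers 5 passed the filter and 0 of these were called, where 2.24% of all genes tested were. The defining ones were near 0 in the co-cultures too, with 2, 2 and 10 counts of Pecam1 in M9, M10 and the third library, against 1 and 2 in M11 and M12. This list summed to 16.1 and 14.4 CPM in M9 and M10 and 9.41 CPM in the third library, against 11.4 and 12 CPM in M11 and M12.

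None of the 10 claudins was called different in the co-cultures M9 and M10 at an adjusted p of 0.05 (edgeR quasi-likelihood test, Benjamini-Hochberg adjustment), where 2.24% of the 15899 genes tested were called, 0.994% as higher and 1.25% as lower. DESeq2 and limma-voom also called none. At an unadjusted p under 0.05 there was 1 claudin, Cldn8, against 17.5% of all genes. The median log2 fold change of the 10 was -0.06, with 1 positive and 9 negative values, beside a median of 0.00 over all genes. The co-culture and alone libraries failed to overlap for 1 of 10 claudins, again Cldn8, where 49.4% of all genes had groups that did not overlap. In bulk RNA, fewer cells of a type and less RNA per cell cannot be told apart, which holds for every level given here. Beside these claudin levels, 3 of the 10 biliary markers were higher in M9 and M10 as given above, and their part in the claudin levels was not tested.

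**Figure D1:**
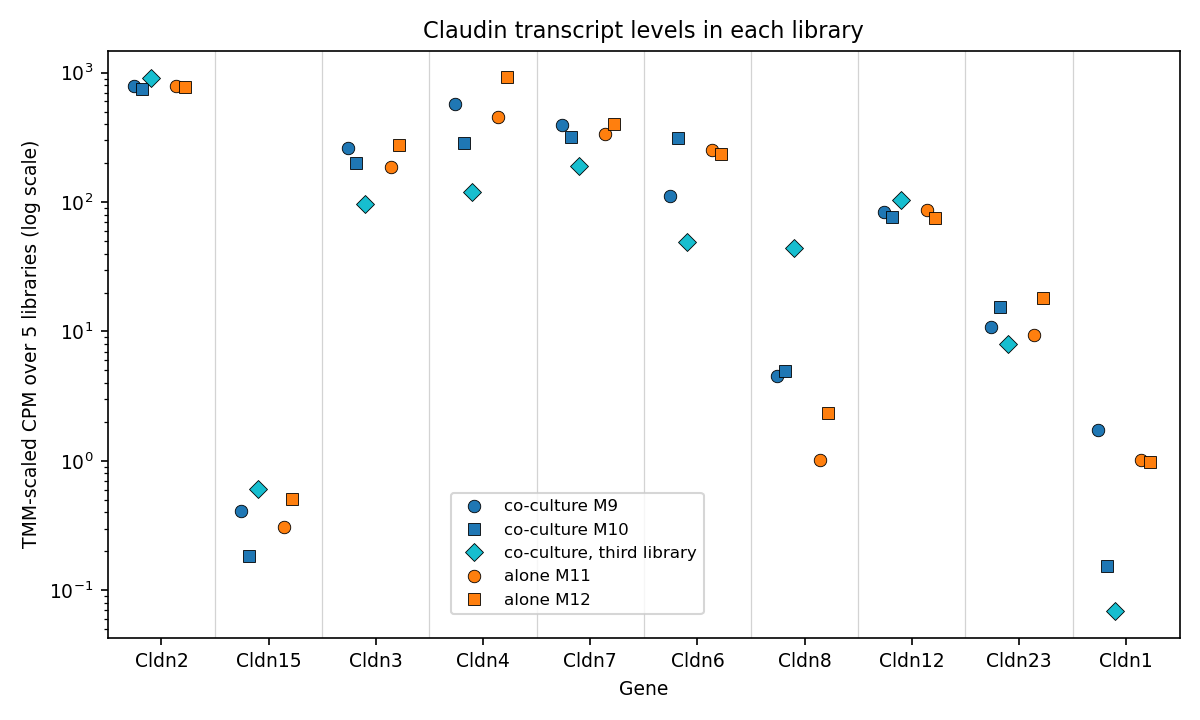
Level of each claudin in each library, as TMM-scaled CPM over 5 libraries on a log scale. Co-culture libraries (blue and cyan) stand left of the libraries alone (orange) for each gene. Cldn2 lies between 752 and 913 CPM in all 5 libraries, while Cldn8 reaches 44.5 CPM in the third co-culture library and is at most 2.35 CPM in organoids alone.

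Per unit of transcript length, 5 claudins made up nearly the whole set. With each CPM divided by the gene's merged exon length in kilobases (GENCODE M21, from 1259 bases for Cldn3 to 4841 for Cldn1), Cldn2, Cldn3, Cldn4, Cldn6 and Cldn7 together took 97.3% and 96.9% of the claudin sum in M9 and M10 and 91.9% in the third library, against 97.3% and 97.8% in M11 and M12. The sum over the 10 was 1060 and 920 CPM per kb in M9 and M10 and 592 CPM per kb in the third library, against 982 and 1330 CPM per kb in M11 and M12. The sum thus overlapped between M9 and M10 and the libraries alone, and the third co-culture library had the lowest. The transcript forms in use may be shorter than the merged exons.

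On this scale Cldn4 ranked first in M9, M11 and M12 and Cldn2 in M10 and the third library. Cldn4 held 29.9% of the sum in M9, 17.1% in M10, 11.2% for the third library, against 25.3% in M11 and 38.1% in M12. Cldn2 held 22.5% in M9, 24.6% in M10, 46.4% for the third library, against 24.3% in M11 and 17.4% in M12. The larger share of Cldn2 in the third library went with a smaller sum, since its own level was 275 CPM per kb there and between 226 and 239 CPM per kb in the other 4 libraries. Neighbours in the order of levels changed places between libraries of one group, as Cldn3 and Cldn7 did between M9 and M10 and between M11 and M12, so the order of these genes does not hold beyond their spread. Cldn12 ranked sixth in every library, and Cldn8, Cldn23, Cldn1 and Cldn15 stayed below it in all 5.

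**Figure D2:**
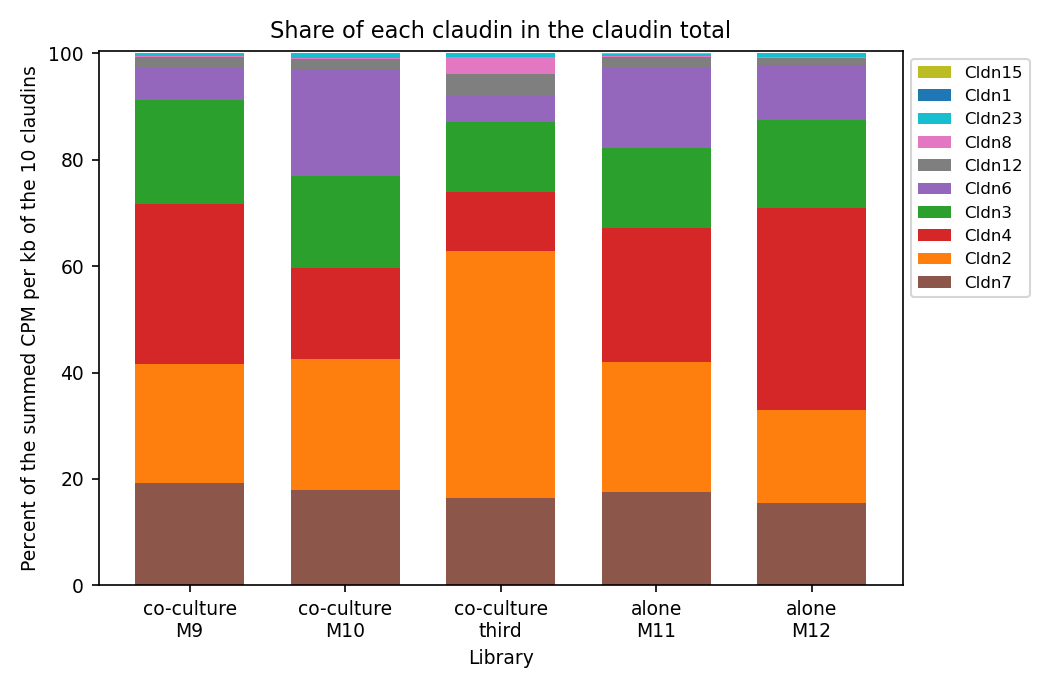
Share of each claudin in the summed CPM per kilobase of the 10 claudins, in percent, for each library, with co-culture libraries on the left. Cldn2 fills 46.4% of the bar of the third co-culture library and at most 24.6% of the others, and Cldn4 ranges from 11.2% in the third co-culture library to 38.1% in M12.

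The pore formers were steady where abundant. Claudin 2 forms a channel for cations and water, and its gene (ENSMUSG00000047230) lies on chromosome X from 139800828 to 139811386 on the plus strand of GRCm38, with 2 exons, 1 of them coding. Cldn2 was at 792 CPM in M9, 752 CPM in M10 and 913 CPM in the third co-culture library, against 794 CPM in M11 and 769 CPM in M12. M9 and M10 overlapped the libraries alone, and only the third library stood above all of them. The log2 fold change of Cldn2 in M9 and M10 was -0.03 with a standard error of 0.14 and a 95% interval from -0.38 to 0.32 (adjusted p = 0.951, edgeR), so the interval reaches no 2-fold change. Among 9633 tested genes with a mean of at least 10 CPM, 79.4% differed more between M9 and M10 than Cldn2 did, and 85.9% more between M11 and M12.

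Claudin 15 forms cation pores in the small intestine. Its gene (ENSMUSG00000001739) lies on chromosome 5 from 136966616 to 136975858 on the plus strand. Cldn15 had 13 and 6 counts in M9 and M10 and 35 in the third library, against 8 and 14 in M11 and M12. These low counts overlap between the groups, and M9 exceeded M10 by 2.25 times with a 95% counting interval (0.798 to 7.22) that holds 1. The fold change of Cldn15 was -0.47 ± 0.71 (log2, SE; 95% interval -2.21 to 1.27; adjusted p = 0.799, edgeR), and this interval holds both a 2-fold rise and a 4-fold fall.

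The promoters of the steadiest abundant claudin, Cldn2, and of a neighbouring pair that varied, Cldn3 and Cldn4, are shown for comparison as the 250 bases before the RefSeq transcription start (GRCm38.p6, 5′ to 3′ on the gene's strand). They lie at chrX:139800558-139800807 (plus), chr5:134985964-134986213 (plus) and chr5:134946935-134947184 (minus). Capitals mark matches on either strand to TATAAA, the core-promoter box that the factor TBP binds. They also mark GGGCGG (a GC box). The third motif in capitals is CACCTG, the E-box that Snail and ZEB repressors bind. The CCAAT box was searched as well. So were the Grainyhead motif AACCGG, and, for CDX factors, TTTATNG, and none of these occurs in the 3 windows.
Cldn2: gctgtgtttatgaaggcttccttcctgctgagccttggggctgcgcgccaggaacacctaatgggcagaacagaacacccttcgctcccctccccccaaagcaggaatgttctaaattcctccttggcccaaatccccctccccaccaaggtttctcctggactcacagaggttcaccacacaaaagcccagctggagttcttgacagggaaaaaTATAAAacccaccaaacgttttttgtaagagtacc
Cldn3: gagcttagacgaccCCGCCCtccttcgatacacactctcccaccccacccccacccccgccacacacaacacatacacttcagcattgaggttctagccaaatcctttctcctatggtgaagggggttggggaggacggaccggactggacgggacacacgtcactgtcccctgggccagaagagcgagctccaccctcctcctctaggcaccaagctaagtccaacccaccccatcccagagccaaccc
Cldn4: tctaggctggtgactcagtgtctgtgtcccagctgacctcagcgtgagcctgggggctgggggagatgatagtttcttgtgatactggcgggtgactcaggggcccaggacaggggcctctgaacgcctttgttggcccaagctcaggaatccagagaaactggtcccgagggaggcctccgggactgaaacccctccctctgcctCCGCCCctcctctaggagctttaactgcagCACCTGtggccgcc
The Cldn2 window held TATAAA at 35 bases before the start, as 12.4% of the 32851 promoters in the table did, and no match to the other marked motifs. The Cldn3 window held 1 GGGCGG and the Cldn4 window 1 GGGCGG and 1 CACCTG, with the CACCTG 14 bases before the start, where 32.7% of all promoters held a GGGCGG and 17.2% a CACCTG. The matches do not overlap one another. By symbol, 8 of the 10 claudins had a promoter entry.

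The sealing claudins Cldn3, Cldn4 and Cldn7 were abundant in every library, and their groups overlapped. Claudins 3 and 4 tighten the junction and are the receptors of Clostridium perfringens enterotoxin. Their single-exon genes are neighbours on chromosome 5, with Cldn3 (ENSMUSG00000070473) from 134986214 to 134987472 on the plus strand and Cldn4 (ENSMUSG00000047501) from 134945119 to 134946934 on the minus strand, and no protein-coding gene lies in the 39279 bases between them.

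Cldn4 was at 575 CPM in M9, 285 CPM in M10 and 120 CPM in the third co-culture library, against 451 CPM in M11 and 919 CPM in M12. The libraries of each group stood far apart, M12 being the highest of all 5 and the third co-culture library the lowest. Cldn4 had a log2 fold change of -0.68 ± 0.45 (SE; 95% interval -1.78 to 0.42; adjusted p = 0.515, edgeR). M9 exceeded M10 by 2.05 times (95% counting interval 2.0 to 2.1) and M12 exceeded M11 by 2.04 times (2.0 to 2.09). Only 5.2% of the 9633 genes differed more between M9 and M10, and 1.1% more between M11 and M12.

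Cldn3 was at 263 CPM in M9, 202 CPM in M10 and 97.4 CPM in the third co-culture library, against 187 CPM in M11 and 276 CPM in M12. As for Cldn4, M12 was the highest library and the third co-culture library the lowest. The fold change of Cldn3 was 0.00 ± 0.25 (log2, SE; 95% interval -0.61 to 0.60; adjusted p = 0.997, edgeR). A noncoding antisense gene, Wbscr25, overlaps it by 40 bases and had 4 to 11 counts in the 4 libraries.

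Claudin 7 binds the adhesion protein EPCAM and sits along the lateral membrane as well as in the junction, and its gene (ENSMUSG00000018569) lies on chromosome 11 from 69964779 to 69967885 on the plus strand. Cldn7 was at 396 CPM in M9, 321 CPM in M10 and 189 CPM in the third co-culture library, against 336 CPM in M11 and 400 CPM in M12. The 4 libraries of the shared table lay close together and the third co-culture library below them all. Cldn7 had a log2 fold change of -0.05 ± 0.18 (SE; 95% interval -0.50 to 0.40; adjusted p = 0.929, edgeR). Epcam itself was at 671 and 568 CPM in M9 and M10 and 531 CPM in the third co-culture library, against 654 and 752 CPM in M11 and M12 (-0.19 ± 0.17, adjusted p = 0.635).

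Because claudin genes arose by duplication, reads of close relatives could be split between them, so the runs of bases they share exactly were measured. Cldn3 and Cldn4 were 69.8% identical over their coding bases, and Cldn6 and its neighbour Cldn9 were 73.4% identical, the closest relation of any of the 10. The coding stretches with the longest shared runs are shown with 20 bases on either side, the shared run in capitals (GENCODE M21, GRCm38).
Cldn6: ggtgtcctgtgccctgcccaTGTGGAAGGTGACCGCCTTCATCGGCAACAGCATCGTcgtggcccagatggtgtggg
Cldn9: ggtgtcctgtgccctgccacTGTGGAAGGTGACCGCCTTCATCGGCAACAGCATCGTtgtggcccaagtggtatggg
Cldn3: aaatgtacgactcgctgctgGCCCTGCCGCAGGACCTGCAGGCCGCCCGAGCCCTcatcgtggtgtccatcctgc
Cldn4: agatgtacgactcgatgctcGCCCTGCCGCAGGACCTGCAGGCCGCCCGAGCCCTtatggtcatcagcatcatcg
The run of Cldn6 and Cldn9 spans 37 bases, from coding base 86 to 122 of both genes, and that of Cldn3 and Cldn4 spans 35. For the other 7 claudins the longest run shared with any listed claudin was 13 to 22 bases. No source used here gives the read length or the handling of multiply mapped reads.

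Claudin 6 belongs to embryonic epithelia and is silent in most adult tissues. Its gene (ENSMUSG00000023906) lies on chromosome 17 from 23679249 to 23682446 on the plus strand. Cldn6 was at 111 CPM in M9, 315 CPM in M10 and 48.8 CPM in the third co-culture library, against 254 CPM in M11 and 237 CPM in M12. M9 and M10 fell on opposite sides of the libraries alone, which nearly coincided, and the third co-culture library was the lowest. M10 exceeded M9 by 2.80 times (95% counting interval 2.70 to 2.91), and 1.7% of the 9633 genes differed more between these libraries. Over M9 and M10 the log2 fold change of Cldn6 was -0.22 ± 0.45 (SE; 95% interval -1.33 to 0.88; adjusted p = 0.856, edgeR). Without M10 it became -1.14 and was called (adjusted p = 0.00394, the lowest of its alternatives, which reached 0.973), whereas without M9 it was 0.35 (adjusted p = 0.182).

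Cldn9 ends 137 bases from the end of Cldn6, on the opposite strand. It had 4 and 2 counts in M9 and M10 and 16 in the third library, against 18 and 28 in M11 and M12. Both co-culture libraries of the shared table lay below both libraries alone, with a log2 fold change of -3.15 ± 0.70 that did not pass (adjusted p = 0.0938, edgeR). Without a low-count filter it did (-3.14, adjusted p = 0.0209), as it did without M9 (-3.72, adjusted p = 0.0492). Over the alternatives the adjusted p of Cldn9 changed sides of the threshold, and its level rests on few counts. The library kit was stranded, per the labels' protocols, but no source used here says whether counting used the strand.

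Cldn8 had the largest fold change of the 10 and the only positive one (that of Cldn3 rounds to 0.00). Claudin 8 blocks cations and, in the kidney collecting duct, pairs with claudin 4, and its single-exon gene (ENSMUSG00000050520) lies on chromosome 16 from 88560828 to 88563183 on the minus strand. Cldn8 was at 4.49 CPM in M9, 4.94 CPM in M10 and 44.5 CPM in the third co-culture library, against 1.01 CPM in M11 and 2.35 CPM in M12. All 3 co-culture libraries stood above both libraries alone, and the third stood far above the other co-cultures. In M9 and M10 the log2 fold change of Cldn8 was 1.47 ± 0.51 (SE; 95% interval before adjustment 0.21 to 2.73; unadjusted p = 0.0291, adjusted p = 0.222, edgeR), with both co-culture libraries of the fit above both libraries alone, and it failed the adjustment.

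The counts behind Cldn8 were 143 and 161 in M9 and M10 and 2579 in the third library, against 26 and 65 in M11 and M12. Per total count the third library exceeded M11 and M12 together by 26.8 times (95% counting interval 21.7 to 33.4, counting error only). M12 itself exceeded M11 by 2.33 times (1.46 to 3.83), and without M11 the fold change of Cldn8 was 1.0, without M12 2.21. With all 5 libraries in the fit it was 3.42 (adjusted p = 0.495). Over all settings the adjusted p of Cldn8 ranged from 0.0821 to 0.765. Its neighbour Cldn17, 53849 bases away, had 1 count in M12 and 0 in the other 4 libraries.

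**Figure D3:**
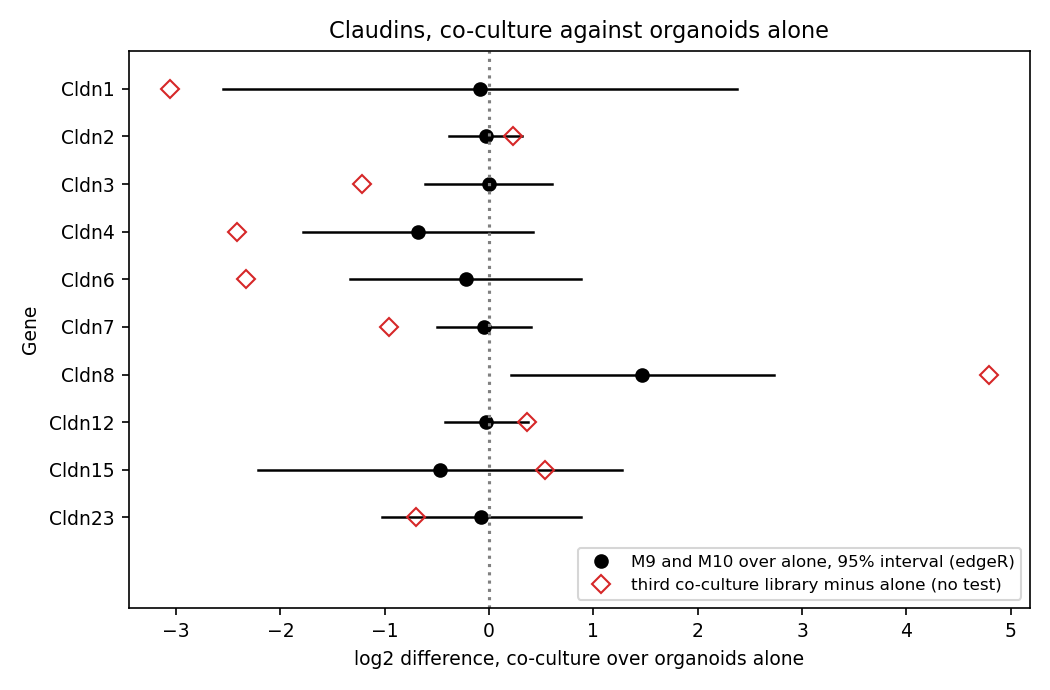
Log2 difference of each claudin from organoids alone. Black points and bars are the edgeR fold change of M9 and M10 with its 95% interval before adjustment, and red diamonds show the third co-culture library less the average log2 CPM of both libraries alone, with no test. Cldn8 is the only gene whose interval leaves 0 (0.21 to 2.73), and the diamonds of Cldn1 (-3.06), Cldn3 (-1.22), Cldn4 (-2.42), Cldn6 (-2.33), Cldn7 (-0.96) and Cldn8 (4.79) stand outside the black bars. The bars cover the fold change of M9 and M10 and are not a range in which a further library should fall.

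Claudin 12 lacks the usual C-terminal scaffold-binding end and, with claudin 2, helps calcium cross mouse epithelia between the cells. Its gene (ENSMUSG00000046798) lies on chromosome 5 from 5489537 to 5514958 on the minus strand. Cldn12 was at 84.4 CPM in M9, 76.5 CPM in M10 and 104 CPM in the third co-culture library, against 87.6 CPM in M11 and 74.9 CPM in M12. The groups of the shared table overlapped within a narrow range. Its log2 fold change was -0.03 ± 0.16 (SE; 95% interval -0.42 to 0.37; adjusted p = 0.963, edgeR).

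Claudin 23, a claudin of the gut surface epithelium, was a minor member, and its gene (ENSMUSG00000055976) lies on chromosome 8 from 35824712 to 35826559 on the minus strand. Cldn23 was at 10.8 CPM in M9, 15.5 CPM in M10 and 7.97 CPM in the third co-culture library, against 9.33 CPM in M11 and 18.1 CPM in M12. M12 was again the highest library, and 1.3% of the 9633 genes differed more between M11 and M12. The log2 fold change of Cldn23 was -0.08 ± 0.39 (SE; 95% interval -1.03 to 0.88; adjusted p = 0.951, edgeR).

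Claudin 1 seals the epidermis, and its loss in humans causes a syndrome of scaly skin and sclerosing cholangitis. Its gene (ENSMUSG00000022512) lies on chromosome 16 from 26356642 to 26371841 on the minus strand. Cldn1 was barely detected, with 55 and 5 counts in M9 and M10 and 4 in the third library, against 26 and 27 in M11 and M12. M9 was the highest library and M10 and the third co-culture library the lowest. M9 exceeded M10 by 11.4 times (95% counting interval 4.61 to 36.6), while M11 and M12 agreed within counting error at 1.03 times (0.578 to 1.84). The log2 fold change of Cldn1 was -0.09 ± 1.0 (SE; 95% interval -2.55 to 2.38; adjusted p = 0.979, edgeR), and it was 0.80 without M10 and -2.67 without M9.

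Set against the libraries alone, the third co-culture library lay higher for 4 of the 10 claudins and lower for 6, with a median log2 difference of -0.83 beside -0.02 over 14306 genes. Besides Cldn8 (4.79), the higher ones were Cldn15 (0.54), Cldn12 (0.36) and Cldn2 (0.23). The lower ones were Cldn1 (-3.06), Cldn4 (-2.42), Cldn6 (-2.33), Cldn3 (-1.22), Cldn7 (-0.96) and Cldn23 (-0.70). M11 and M12 serve both comparisons, so the differences of the third library and those of M9 and M10 are not independent. The 12 hepatocyte markers summed to 142 and 236 CPM in M9 and M10 and 1460 CPM in the third co-culture library, against 638 and 1650 CPM in M11 and M12. Most of each sum was 1 gene, Trf, at 82.1, 120 and 1130 CPM in these co-cultures, against 559 and 1350 CPM. The members went both ways. Of the 7 tested, 2 had positive and 5 negative fold changes in M9 and M10. Called lower by edgeR were 3, Alb (-7.33, adjusted p = 0.0186), Hp (-7.51, adjusted p = 0.046) and Trf (-3.25, adjusted p = 0.0345), and 0 were called higher. Over all genes edgeR called 1.25% lower and 0.994% higher. In the third library 4 of the 7 lay above the average of the libraries alone and the rest below. The part of hepatocyte and biliary markers in the levels of the third library was not tested.

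**Figure D4:**
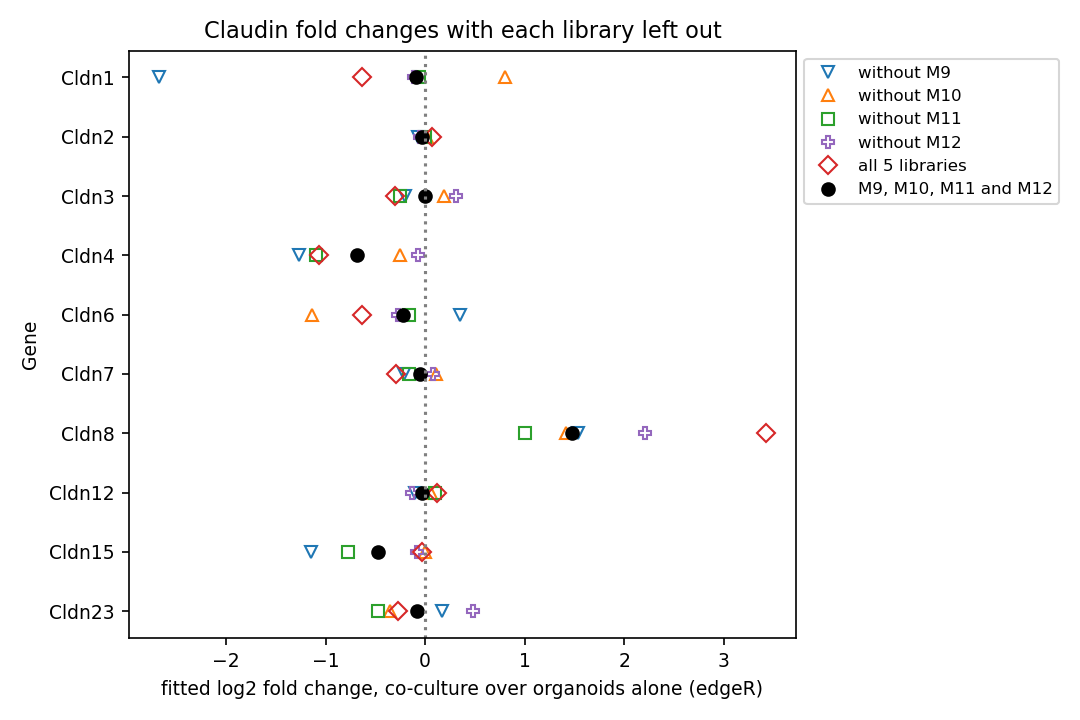
Fitted log2 fold change of each claudin, co-culture over organoids alone, from all 4 libraries of the shared table (black), with each library left out (open symbols) and with the third co-culture library added (red diamonds). Cldn6 moves from -1.14 without M10 to 0.35 without M9, and Cldn1 from 0.80 to -2.67, whereas Cldn2 stays between -0.07 and 0.07.

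The other claudins were nearly silent. Of 20 further claudin and claudin-domain genes looked up, 3 passed the low-count filter and 9 had no count in the 4 libraries. Of these 3, edgeR called 0, where it called 2.24% of all genes. Cldn5, the claudin of endothelial tight junctions, had 0 counts in M9, M10, M11 and M12 and 6 in the third co-culture library. Taking 3 counts as the limit that a count of 0 allows, Cldn5 was below 0.0885 CPM in M9, 0.0836 in M10, 0.113 in M11 and 0.103 in M12 (counting error only). Cldn34c1 had 4 and 0 counts in M9 and M10 and 7 in the third library, against 24 and 28 in M11 and M12, and did not pass (-3.89 ± 1.04, adjusted p = 0.137, edgeR), though it did without a low-count filter (-3.88, adjusted p = 0.00499). Leaving out M9 also moved it, to a log2 fold change of -7.81 that rests on the 0 counts of M10. Cldn18, a stomach and lung claudin, had 6 and 7 counts in M9 and M10, 0 in the third co-culture library, against 5 and 15 in M11 and M12. Cldn14 had 0 counts in all 3 co-culture libraries, against 3 and 5 in M11 and M12. Of the genes in this paragraph so far, Cldn34c1 alone passed the filter. Cldn20 had 2 and 2 counts in M9 and M10 and 0 in the third library, against 5 and 6 in M11 and M12, and Cldn10, Cldn11, Cldn17, Cldn19 and Cldn24 had at most 1 count in any library. Cldnd2 had 8 counts in the third co-culture library and 0 in the others. Cldnd1, which encodes a claudin-domain protein, was at 43.4 and 40.7 CPM in M9 and M10 and 69.7 CPM in the third co-culture library, against 40.7 and 36.2 CPM in M11 and M12 (0.12 ± 0.17, adjusted p = 0.792).

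No tight junction partner was called either. Of 13 membrane partners tested, edgeR called 0, where it called 2.24% of all genes. There were 4 at an unadjusted p under 0.05, where 17.5% of all genes were, and the median log2 fold change was 0.17. The groups did not overlap for 8 of the 13, against 49.4% of all genes. The 2 most abundant were F11r, which encodes the adhesion molecule JAM-A, at 393 and 341 CPM in M9 and M10 and 324 CPM in the third co-culture library, against 420 and 503 CPM in M11 and M12 (-0.34 ± 0.17, adjusted p = 0.391), and Lsr, the angulin of tricellular contacts, at 369, 335 and 255 CPM in these co-cultures, against 356 and 435 CPM (-0.18 ± 0.17, adjusted p = 0.669). DESeq2 called 1 partner higher, the junctional adhesion molecule gene Jam2 (1.67, adjusted p = 0.00681), and limma-voom 0. Over all 15899 genes DESeq2 called 633 higher and 681 lower, where edgeR called 158 and 198. The DESeq2 calls in this list and the lists below stand beside that larger number. Jam2 and the other genes below that DESeq2 called were chosen for naming after their values were seen. In edgeR Jam2 had the same fold change with an adjusted p of 0.158. The third co-culture library did not follow, with Jam2 at 1.83 CPM, against 9.84 and 6.73 CPM in M11 and M12.

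Of 21 scaffold and polarity genes edgeR called 0 (2.24% of all genes), with 4 at an unadjusted p under 0.05 (17.5% of all genes) and a median of 0.12. The groups did not overlap for 9 of the 21, against 49.4% of all genes. Tjp1, which encodes the scaffold ZO-1 that binds claudin tails, was at 516 and 674 CPM in M9 and M10 and 484 CPM in the third co-culture library, against 601 and 508 CPM in M11 and M12 (0.09 ± 0.19, adjusted p = 0.864). Cgnl1, which encodes the junctional protein paracingulin, was at 417 and 612 CPM in M9 and M10 and 425 CPM in the third library, against 458 and 425 CPM in M11 and M12 (0.21 ± 0.21, adjusted p = 0.687). The groups overlapped for both genes. DESeq2 called 1 scaffold gene higher, Tjp3 (0.58, adjusted p = 0.0423), and 2 lower, Amotl1 (-1.35, adjusted p = 0.00629) and Mpdz (-1.07, adjusted p = 0.006), and limma-voom called 0. In edgeR their adjusted p was 0.13, 0.149 and 0.102. The third co-culture library had Tjp3 at 143 CPM, against 134 and 124 CPM in M11 and M12. It had Amotl1 at 38.7 CPM, against 166 and 147 CPM, and Mpdz at 14.1 CPM, against 21.7 and 18.5 CPM.

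Of 26 genes that bind, process or switch on claudins and junction genes, edgeR called 0, against 2.24% of all genes. At an unadjusted p under 0.05 there were 4, where 17.5% of all genes were, and the median was 0.22. For 16 of the 26 the groups did not overlap, against 49.4% of all genes. Cdh1, which encodes E-cadherin, was at 1330 and 1590 CPM in M9 and M10 and 1670 CPM in the third co-culture library, against 1270 and 1530 CPM in M11 and M12 (0.05 ± 0.18, adjusted p = 0.929). Spint2, an inhibitor of the proteases that cut EPCAM and claudin 7, was at 1130 and 1260 CPM in M9 and M10 and 534 CPM in the third library, against 1110 and 1100 CPM in M11 and M12 (0.10 ± 0.14, adjusted p = 0.798). DESeq2 called 3 of this list higher, the epithelial transcription factor genes Elf3 (0.82, adjusted p = 0.0185) and Cdx2 (1.41, adjusted p = 0.0186) and the motor gene Myo5b (0.72, adjusted p = 0.0193). In edgeR their adjusted p was 0.124, 0.185 and 0.108. The third co-culture library had Elf3 at 79.8 CPM, between M11 and M12 (69.8 and 92.6 CPM). It had Cdx2 at 17.4 CPM, against 7.54 and 16.6 CPM, and Myo5b at 139 CPM, against 66.2 and 77.6 CPM.

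Of 6 Snail, ZEB and Twist family genes tested, which repress epithelial junction genes, edgeR called 0, against 2.24% of all genes. At an unadjusted p under 0.05 there were 2, where 17.5% of all genes were, and the median was -1.59. For 5 of the 6 the groups did not overlap, against 49.4% of all genes. The most abundant were Snai3, at 9.32 and 5.25 CPM in M9 and M10 and 0.948 CPM in the third co-culture library, against 4.04 and 8.21 CPM in M11 and M12 (0.24 ± 0.48, adjusted p = 0.856), and Zeb1, at 3.51, 1.84 and 7.22 CPM in these co-cultures, against 6.65 and 4.96 CPM (-1.12 ± 0.46, adjusted p = 0.291). DESeq2 called Zeb2 (-2.46, adjusted p = 0.0265) and Twist1 (-2.59, adjusted p = 0.0239) lower. In edgeR their adjusted p was 0.146 and 0.0769. The third co-culture library had Zeb2 at 0.397 CPM, against 1.59 and 4.7 CPM in M11 and M12, and Twist1 at 0.069 CPM, against 1.52 and 2.21 CPM. Mesenchymal cells are known to use these repressors, and their 12 markers summed to 2.51 and 3.25 CPM in M9 and M10 and 8.28 CPM in the third co-culture library, against 28.7 and 88.6 CPM in M11 and M12. Of the 7 mesenchymal markers tested, edgeR called 3 lower, where it called 1.25% of all genes lower. Col3a1 had 0 and 1 counts in M9 and M10 and 13 in the third library, against 71 and 351 in M11 and M12. Their part in the levels of the repressors was not tested.

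**Figure D5:**
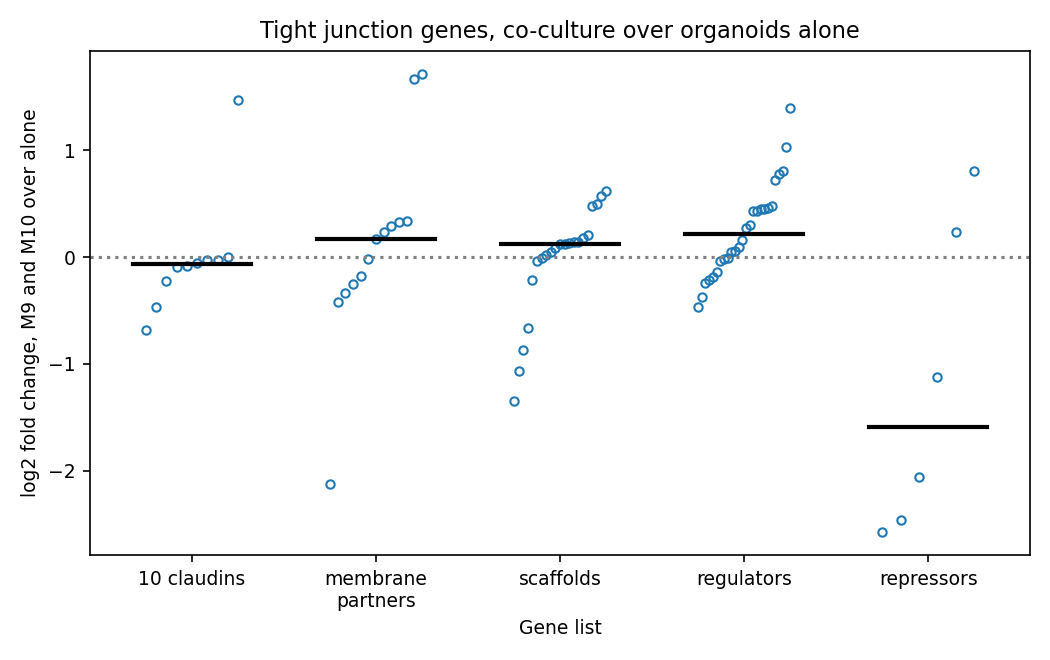
Log2 fold change of each tested gene, M9 and M10 over organoids alone, for the 10 claudins and 4 lists of tight junction genes. Each circle is a gene and each black bar a list's median, which is -0.06 for the claudins, 0.17, 0.12 and 0.22 for the partners, scaffolds and regulators, and -1.59 for the repressors. No gene shown was called by edgeR after adjustment.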

How the data were processed

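Total RNA of 5 organoid samples was sequenced from stranded, rRNA-depleted libraries, per the labels' protocols. Per the file headers, 4 libraries share a deposited table of estimated counts per Ensembl gene, in which 31.7% of genes with a count had a value that was not whole. The third co-culture library has its own deposited table of whole read counts per RefSeq transcript and gene symbol, and its column carries another number than its record does. The 10 normalized columns of both tables were not used. The submitters' processing notes list, with no roles, StringTie 2.1.3b, HISAT2 2.1.0, Trimmomatic 0.38, Bowtie2 2.3.4.1 and FastQC 0.11.7. No source used here names the counter or its strand setting.

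Repeated rows were reduced to 52029 genes and the estimated counts rounded. With edgeR 4.0.16 in R 4.3.3, genes were filtered by filterByExpr, scaled by TMM and tested by a robust quasi-likelihood F-test without covariates over 2 co-culture and 2 alone libraries, with Benjamini-Hochberg adjustment over 15899 genes and a threshold of 0.05. The script was tested on simulated data with the estimated dispersions and 2 libraries per group. It recovered 36% of 2-fold and 86% of 4-fold changes, so most 2-fold changes were missed. False calls were 23 of 182, a larger share than the threshold of 0.05 aims at. Changes were simulated only in genes with higher mean counts. The rates therefore do not cover low counts such as those of Cldn1, Cldn9 and Cldn15. Alternatives were DESeq2 1.42.0, limma 3.58.1 (voom), other scalings and low-count filters, 1 library dropped at a time, and a fit that adds the third co-culture library. For levels, the third table was joined by symbol (30869 genes, 91.9% of its counts) and all 5 libraries were scaled together, with a prior count of 2 for log2 differences. Counting intervals are exact binomial and cover counting error only. Promoters came from RefSeq (GRCm38.p6), gene positions and exon lengths from GENCODE M21. Of each tight junction list the 2 most abundant genes were named where none was called. Members and lists were chosen with earlier results of these data known.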

Additional observations from a re-analysis of the deposited data

How the results depend on the processing

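No alternative called a claudin higher, and leaving out each library in turn gave 0 to 1 claudins lower, Cldn6 without M10. The fold change of Cldn3 was 0.01 without a low-count filter and 0.01 by limma-voom, and with all 5 libraries Cldn2 was at 0.07 and Cldn12 at 0.12. With 1 library left out the range was -2.67 to 0.80 for Cldn1, -0.07 to 0.02 for Cldn2, -0.25 to 0.31 for Cldn3 (0.19 without M10), -1.14 to 0.35 for Cldn6, -0.21 to 0.11 for Cldn7 (0.08 without M12), -0.13 to 0.10 for Cldn12 (0.06 without M10) and -0.47 to 0.48 for Cldn23 (0.17 without M9), all across 0. Cldn4 ranged from -1.27 to -0.07, Cldn8 from 1.0 to 2.21, and Cldn15 from -1.15 without M9 to 0.00 without M10. Over all alternatives 92 claudin values kept their direction and side of the threshold, 15 changed sign and 1 newly passed. In the partner, scaffold, regulator and repressor lists edgeR called 1, 1, 2 and 2 genes without a low-count filter. In that setting it called 667 genes higher and 737 lower of 28537 tested.

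Over all genes, edgeR called 158 higher and 198 lower. There were 667 higher and 737 lower without a low-count filter, 633 and 681 by DESeq2, 102 higher by limma-voom, and 0 and 2 with all 5 libraries (1430 at an unadjusted p under 0.05). Leaving out a library gave 1294 higher and 1325 lower without M9, 493 and 621 without M10, 12 and 38 without M11, and 0 and 0 without M12 (1438 at an unadjusted p under 0.05). The cause was not tested. A lone library in such a fit is assumed to vary like the other group. No paired analysis was possible because the columns of the shared table carry no replicate number of the titles. Depth limits Cldn15 and the silent claudins. Libraries of the co-culture or the alone group differed beyond counting error for every claudin except Cldn15. This held even for Cldn2, at 1.07 times between M9 and M10 (95% counting interval 1.05 to 1.09). Between these libraries Cldn1, Cldn4 and Cldn6 differed more, by 11.4, 2.05 and 2.80 times.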

Other observations

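Among the tight junction genes looked up, several set the third co-culture library apart from M9 and M10 as Cldn8 did. They were picked after their values were seen and get no test. Jam3, which encodes the junctional adhesion molecule JAM-C, was at 0.377 and 0.337 CPM in M9 and M10 and 20.3 CPM in the third co-culture library, against 1.21 and 1.92 CPM in M11 and M12. Jam2, which encodes its binding partner JAM-B, went the other way, at 37.9 and 15.2 CPM in M9 and M10 and 1.83 CPM in the third library, against 9.84 and 6.73 CPM in M11 and M12. Wnk4, a kinase known to phosphorylate claudins, was at 32.6 and 25.9 CPM in M9 and M10 and 80.4 CPM in the third library, against 22.8 and 25.5 CPM in M11 and M12. Ildr2, an angulin of tricellular contacts, was at 64.2 and 52.3 CPM in M9 and M10 and 114 CPM in the third library, against 52.9 and 38.9 CPM in M11 and M12.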
